A study of Xenopus laevis with 115 samples.

Results

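The transcripts described here are 200 targets whose levels varied most between libraries of fertilised gastrula ectoderm of the frog Xenopus laevis. They were chosen in the experiments that used SGC-CBP30 (the CBP30 set), in which 72076 target sequences were counted. Levels are given as CPM, expected counts scaled to a total of 1000000 per library, and spread was measured on the log2(CPM + 0.5) scale. Candidates were XBmRNA targets with a mean of at least 5 CPM in the 11 fertilised libraries and with medians of the 3 experiments within 1 log2 unit of each other. The median ratio of DMSO nuclear-transfer ectoderm to fertilised ectoderm had to lie between 0.67 and 1.5, and that of DMSO donor endoderm to fertilised ectoderm between 0.25 and 4. These limits left 8993 eligible transcripts, and the 200 with the highest pooled within-experiment SD over the 11 fertilised libraries form the variable set. The fertilised values of the CBP30 set therefore chose the transcripts and are given without a test. The spread in all nuclear-transfer libraries, and every value of the CBP30 nuclear-transfer libraries and of the A485 set, took no part in the choice.

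The animal cap of a Xenopus gastrula is ectoderm that goes on to form epidermis and neural tissue. Embryos raised side by side can differ in maternal RNA, in genotype and in exact developmental age, and their transcript levels can differ with these. In nuclear transfer, an egg receives the nucleus of another cell, and the embryo that develops has to silence the programme of the donor tissue and start that of each new one. The acetyltransferases p300 and CBP acetylate histones at enhancers and promoters. SGC-CBP30 blocks their bromodomains, A-485 blocks their catalytic activity, and A-486 is known as the inactive relative of A-485.

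The libraries were poly(A) RNA-seq libraries of WT embryos with paired reads of 50 bases. CBP30 nuclear-transfer ectoderm (NT CBP30, 11 libraries) was NF stage 11 ectoderm of embryos made with endoderm nuclei of NF stage 18 donors that had been kept in 40 µM SGC-CBP30 since gastrulation. DMSO nuclear-transfer ectoderm (NT DMSO, 12 libraries) had donors kept in the solvent. Fertilised ectoderm (11 libraries) was NF stage 11 ectoderm of embryos made by in vitro fertilisation, with no donor. The A485 set had ectoderm of the same stage from nuclei of donors kept in 30 µM A-485 (NT A485, 11 libraries) or given A486, which the records do not describe further (NT A486, 13 libraries), and 4 fertilised libraries of experiment 1, out of 12 recorded samples, the rest of which were not analysed here. The inhibitors were given to the donors, and no treatment of the nuclear-transfer embryos themselves is recorded. Donor endoderm was sequenced too, with 5 CBP30, 6 DMSO, 6 A485 and 6 A486 libraries. Each set comprised 3 experiments, and the records do not say whether a library is 1 embryo or a pool, nor whether embryos of 1 experiment share parents. The p-values below therefore set group differences against the variation between these libraries only, and the libraries may not be independent of each other.

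Total expected counts ran from 10352221 to 24923622 per ectoderm library in the CBP30 set and from 6468976 to 24820727 in the A485 set. The identifiers are paired with no gene symbol in the files or the reference table, so no function can be given and a check of the tissues by named markers could not be run. In its place stands the summed CPM of 498 endoderm-high transcripts, more than 16-fold higher in DMSO donor endoderm than in fertilised ectoderm. The ectoderm-high list holds 240 transcripts with a difference of that size the other way. Both lists were chosen from these data, with a median of at least 20 CPM in the higher tissue. Sums of the A485 set cover only the 298 and 147 of them found there by identifier, so they are not the same measure as those of the CBP30 set. Library 5 of NT DMSO experiment 3 stood apart with an endoderm-high sum of 17367 CPM, against 2088 to 3630 CPM in the other NT DMSO libraries. Several NT DMSO results are also given without that library, and the others include it. In the A485 set, fertilised library 1 had 51405 CPM in the summed ectoderm-high transcripts, against 23774 to 29056 CPM in the other 3. The tissue field of NT A485 library 1 of experiment 3 contradicts its title, and its endoderm-high sum of 2803 CPM lay within the 1584 to 4708 CPM of NT A485 libraries, far under the 98106 to 131977 CPM of the A485 donors.

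The variable transcripts were expressed at moderate levels. Their median in fertilised ectoderm was 15.8 CPM, with a range of 5.11 to 787 CPM, and that of all eligible transcripts was 28.6 CPM. Their median target length was 2223 bases, against 1852 bases for the eligible transcripts. Counting error alone would give a median SD of 0.10 log2 units over the fertilised libraries at these levels. In the nuclear-transfer libraries, the measured SD was a median of 5.67 times the counting SD in NT CBP30 and 5.398 times in NT DMSO, against 3.61 and 3.50 times for the eligible transcripts. The limit of the set fell in a smooth tail. The last transcripts inside it, XBmRNA40382 and XBmRNA46868, had an SD of 0.47 log2 units, and the first outside, XBmRNA44099 and XBmRNA66413, had 0.47 and 0.46.

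Most of the transcripts that varied between fertilised libraries varied between nuclear-transfer libraries as well, with either donor treatment. The median pooled within-experiment SD of the 200 transcripts was 0.50 log2 units in NT CBP30, where that of all eligible transcripts was 0.23. It was 0.46 log2 units in NT DMSO, where the eligible transcripts had 0.22. In the fertilised libraries that chose them the medians were 0.54 and 0.19. Among the eligible transcripts, the 10% with the highest spread included 120 of the 200 in NT CBP30 (60%) and 125 in NT DMSO (62.5%), where by definition 10% of all eligible transcripts are. Without the NT DMSO library high in endoderm transcripts these values were 0.44 log2 units and 119 transcripts. Over all 23 nuclear-transfer libraries of the CBP30 set, 140 of the 200 (70%) were in the top 10% and 195 were above the eligible median. In bulk tissue, a change in the share of a cell type and a change in RNA per cell cannot be told apart, so these spreads are of the whole animal cap.

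In each experiment the variable transcripts lay above the eligible ones after nuclear transfer. The median SD of the 200 transcripts was 0.34, 0.43 and 0.46 log2 units in experiments 1, 2 and 3 of NT CBP30, where the eligible transcripts had 0.18, 0.22 and 0.20. It was 0.44, 0.39 and 0.45 in NT DMSO, against 0.21, 0.21 and 0.18 for the eligible transcripts. Fewer of them were in the top 10% in the stage 18 donor endoderm of the CBP30 set. There, the median SD was 0.38 log2 units in CBP30 donors, where 44 of the 200 (22%) were in the top 10%, and 0.42 in DMSO donors, where 75 (37.5%) were. The eligible transcripts had medians of 0.28 and 0.24, and 127 and 159 of the 200 lay above these. Donor experiments hold at most 2 libraries each, so these medians rest on few pairs.

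The matched transcripts lay above the eligible ones in the A485 set as well. Its tables count 1 transcript per gene, and 105 of the 200 identifiers were matched there, 28 of them with the same target length. Over those 28, the median SD was 0.57 log2 units in NT A485 and 0.48 in NT A486, where the 377 eligible transcripts of unchanged length had 0.23 in each. The top 10% of these held 17 of the 28 in NT A485 (60.7%) and 16 in NT A486 (57.1%). Over all 105 matched transcripts, 72 were in the top 10% in NT A485 (68.6%) and 73 in NT A486 (69.5%), and 55 in the 4 fertilised libraries (52.4%). The median SDs of the 105 were 0.41, 0.42 and 0.44 log2 units in these groups. Those of the 5229 matched eligible transcripts were 0.17, 0.18 and 0.21. In those fertilised libraries the top 10% held 8 of the 28 (28.6%). The fertilised libraries of this set had a median SD of 0.44 log2 units over the 28 transcripts and 0.28 over the eligible ones. Without fertilised library 1 the medians were 0.33 and 0.24, and 9 of the 28 were in the top 10%. In donor endoderm of this set the top 10% held 8 of the 28 in A485 donors (28.6%) and 10 in A486 donors (35.7%). Over the 105 matched it held 41 (39.05%) and 45 (42.86%). The share in donors was thus not lower than in fertilised ectoderm over the 28, and was lower over the 105.

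**Figure D1:**
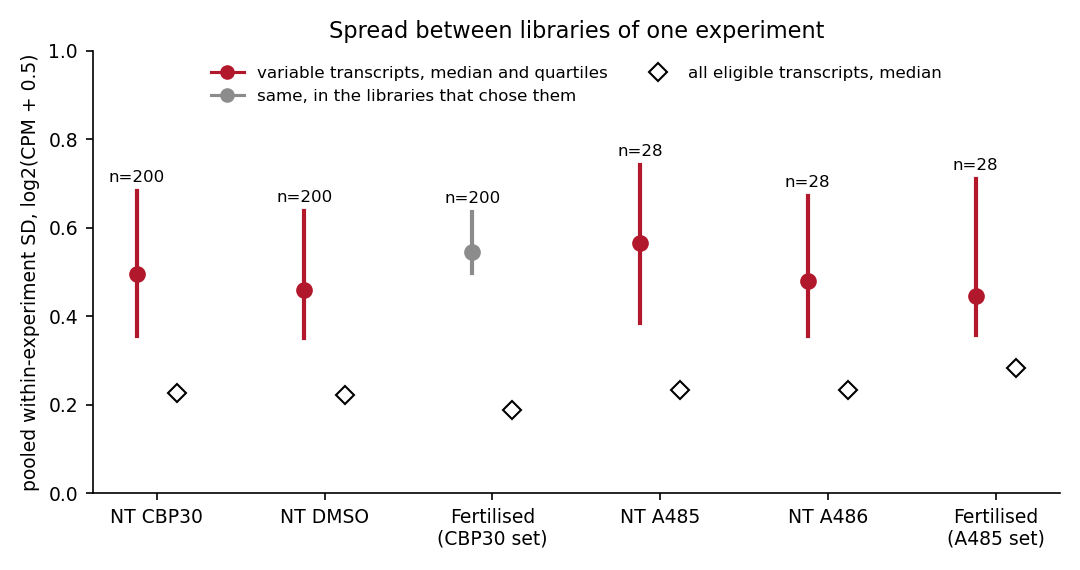
Pooled within-experiment SD on the log2(CPM + 0.5) scale (vertical axis) in each ectoderm group (horizontal axis): filled points are the medians of the variable transcripts with bars from the first to the third quartile, and open diamonds are the medians of all eligible transcripts. The grey point is the group that chose the transcripts. In the groups of the A485 set the points cover the 28 variable transcripts of unchanged length, and the diamonds the 377 eligible ones of unchanged length. In NT CBP30 and NT DMSO the medians of 0.50 and 0.46 lie above the eligible medians of 0.23 and 0.22.

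The transcript with the highest spread in fertilised ectoderm was XBmRNA17628, with an SD of 1.67 log2 units. In NT CBP30 its expected count rounded to 0 in libraries 1 and 3 of experiment 3, and in the other 9 libraries it ran from 2.94 to 21.5 CPM. In NT DMSO it rounded to 0 in library 3 of experiment 1 and reached 28.9 CPM in library 5 of experiment 3. In fertilised ectoderm it rounded to 0 in library 2 of experiment 2, where library 1 of the same experiment had 24.1 CPM. A count of 0 allows 0.197 to 0.262 CPM in these libraries (3 counts of the total). XBmRNA17628 was thus not detected in 4 of the 34 ectoderm libraries of the CBP30 set, at least 1 in each group, and exceeded 20 CPM in others of each group. Its SD over the nuclear-transfer libraries was 1.47 log2 units, rank 5 among the 8993 eligible transcripts. In the A485 set, where it has the same length of 6102 bases, it ran from 0.770 to 23.7 CPM in NT A485, from 2.82 to 25.8 CPM in NT A486 and from 20.7 to 93.6 CPM in fertilised ectoderm.

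XBmRNA28267 had a high spread in some groups and a low one in others. It had an SD of 1.46 log2 units in fertilised ectoderm, where its count was 0 in library 2 of experiment 2 and 0.418 CPM in library 4 of experiment 3. It ran from 1.82 to 13.4 CPM in NT CBP30, from 3.22 to 13.3 CPM in NT DMSO and had a median of 5.54 CPM in fertilised ectoderm. Its SD was 0.70 log2 units in NT CBP30 and 0.28 in NT DMSO, and 0.52 over both, rank 377 among the 8993 eligible transcripts. In the A485 tables, where the target of this identifier is 5754 bases long and not 1721, its level was 46.9 to 99.9 CPM with SDs of 0.13 in NT A485, 0.18 in NT A486 and 0.20 in fertilised ectoderm. The longer target under the same identifier thus had SDs under or near the eligible medians of that set.

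XBmRNA19749 had 0.719 CPM in the lowest and 22.8 CPM in the highest NT CBP30 library, with a median of 11.8 CPM. It ran from 2.06 to 17.9 CPM in NT DMSO (median 10.0 CPM) and from 1.2 to 20.1 CPM in fertilised ectoderm (median 7.92 CPM). The ranges of the 3 groups covered each other, and its SD was 1.2, 0.81 and 1.07 log2 units in NT CBP30, NT DMSO and fertilised ectoderm. XBmRNA49705 had lower SDs after nuclear transfer than in fertilised ectoderm. It ran from 6.83 to 24.0 CPM in NT CBP30, from 5.95 to 21.7 CPM in NT DMSO and from 6.84 to 38.7 CPM in fertilised ectoderm, with SDs of 0.30, 0.47 and 0.98. Whether the spread of a single transcript differs between fertilised and nuclear-transfer ectoderm of the CBP30 set was not tested, since the fertilised spread chose it.

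The highest spread over the 23 nuclear-transfer libraries among the 200 was that of XBmRNA22999, at 1.58 log2 units. It ran from 1.81 to 47.0 CPM in NT CBP30, with a median of 26.9 CPM. In NT DMSO, library 3 of experiment 2 had 0.112 CPM and library 1 of experiment 1 had 1.22 CPM, against a median of 29.7 CPM and a highest value of 66.7 CPM. In fertilised ectoderm it stayed between 12.6 and 68.1 CPM, and its SD of 0.53 put it at rank 109. At the other end, XBmRNA48249 and XBmRNA14620 had SDs of 0.19 and 0.20 over the nuclear-transfer libraries, under the eligible median of 0.23. XBmRNA48249 entered the set through fertilised library 1 of experiment 1, at 23.0 CPM, where the other fertilised libraries ran from 4.79 to 13.8 CPM. Its nuclear-transfer levels were 4.98 to 10.2 CPM in NT CBP30 and 4.47 to 10.8 CPM in NT DMSO.

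**Figure D2:**
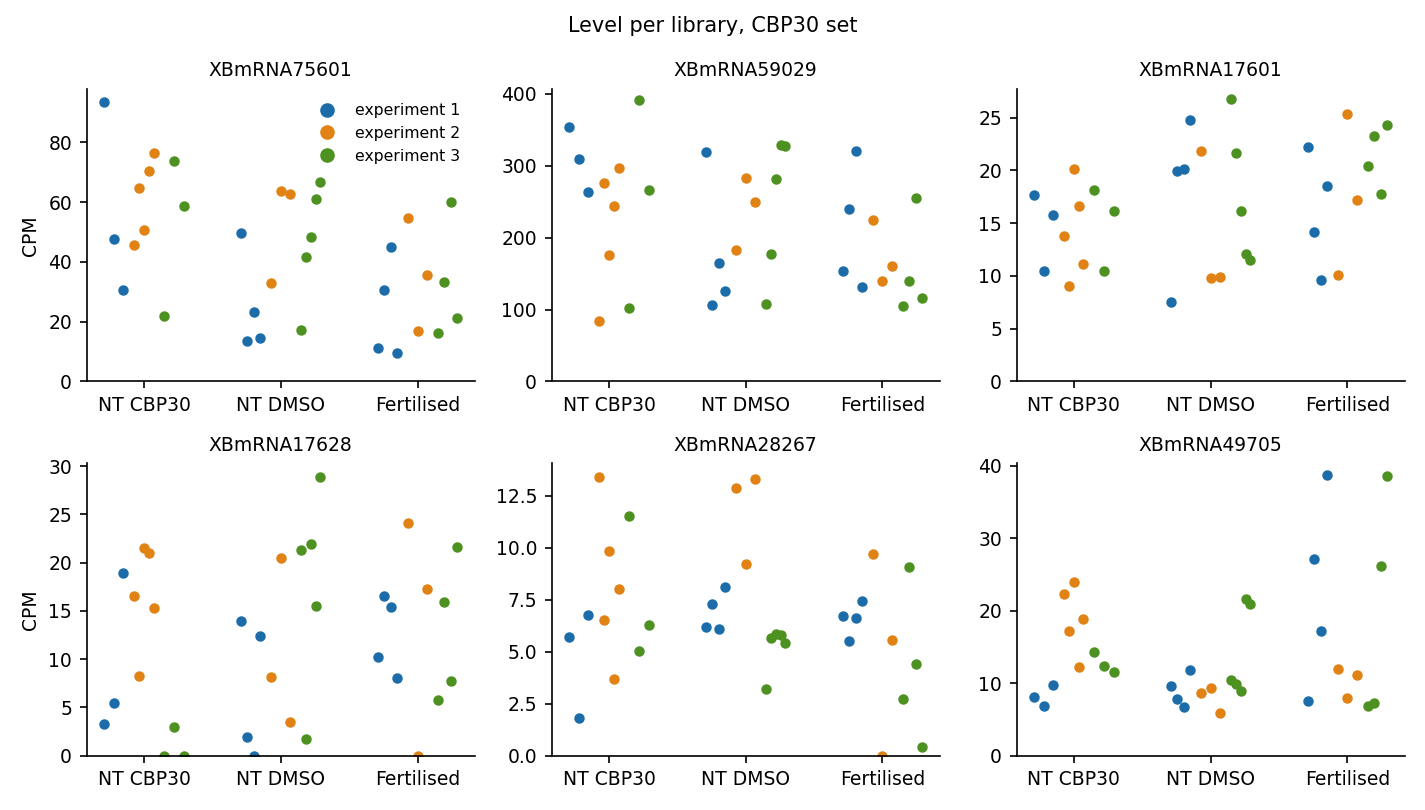
CPM (vertical axis, linear from 0) of 6 variable transcripts in each ectoderm library of the CBP30 set, 1 point per library, coloured by experiment, in NT CBP30, NT DMSO and fertilised ectoderm (horizontal axis). XBmRNA75601 and XBmRNA17628 spread widely in each of the 3 groups, and XBmRNA49705 reaches 38.7 CPM in fertilised ectoderm and no more than 24.0 CPM after nuclear transfer.

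The 200 transcripts did not vary as 1 unit. The median correlation between pairs of them over the 11 fertilised libraries, after removal of each experiment's mean, was 0.14, as it was for all eligible transcripts. Average linkage of these correlations (joined while 1 - r stayed at or under 0.5) gave 9 clusters of at least 5 transcripts, with 60, 47, 20, 11, 9, 8, 7, 7 and 6 members. The other 25 transcripts were in no such cluster. The correlations within clusters in fertilised ectoderm follow from the way they were built, so only the other libraries describe whether a cluster holds together.

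Cluster 1 held together in all 4 nuclear-transfer groups. The median correlation between pairs of its 60 transcripts was 0.45 in NT CBP30 (11 libraries) and 0.50 in NT DMSO (12 libraries), or 0.55 without library 5 of experiment 3. The eligible transcripts had 0.07 and 0.03 there. Over the 42 cluster 1 transcripts matched in the A485 set it was 0.61 in NT A485 (11 libraries) and 0.60 in NT A486 (13 libraries), with 0.12 and 0.04 for the eligible ones. The 12 of unchanged length gave 0.74 and 0.67. In the 4 fertilised libraries of the A485 set the value was 0.04 over the 42, against 0.12 for the eligible transcripts, and 4 libraries are too few to describe a correlation. Libraries share depth, preparation and experiment, so these are descriptions of the libraries at hand. Of the 60 transcripts, 49 had a correlation of at least 0.5 with the mean of the rest over the 23 nuclear-transfer libraries of the CBP30 set, and 2 had a negative one. In the A485 set 35 of 42 had at least 0.5, and none was negative, with a lowest value of 0.07 for XBmRNA5808.

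Clusters 3 and 5 held together less tightly, and the other clusters less still or not in every group. For the 20 transcripts of cluster 3, the median correlation was 0.40 in NT CBP30, 0.28 in NT DMSO, and over the 12 matched in the A485 set it was 0.41 in NT A485 and 0.40 in NT A486. The 3 of these with unchanged length gave -0.06 and -0.00. For the 9 of cluster 5 it was 0.30 and 0.36 in NT CBP30 and NT DMSO, and 0.39 and 0.34 over the 5 matched in NT A485 and NT A486. Cluster 2 had 0.21 and 0.10, and over its 19 matched transcripts 0.20 and 0.05, although its 47 transcripts had 0.76 in the fertilised libraries that formed it. That last value was 0.38 without fertilised library 2 of experiment 2. In that library cluster 2 lay 1.15 log2 units under the mean of its experiment, and in library 1 of the same experiment 0.84 above it. The library also differed by transcript length: its eligible transcripts in the shortest length class lay 0.05 log2 units above their experiment's mean and those in the longest class 0.14 under it. The part of this length difference in cluster 2 was not tested. Clusters 4 and 6 to 9 had median correlations between -0.19 and 0.35 over the nuclear-transfer groups. In the A485 set these rest on 4 matched transcripts in clusters 4 and 8, 5 in cluster 6 and 3 in cluster 7, which had the 0.35 in NT A485. Cluster 9 had 2 matched there and was followed in the CBP30 set only.

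**Figure D3:**
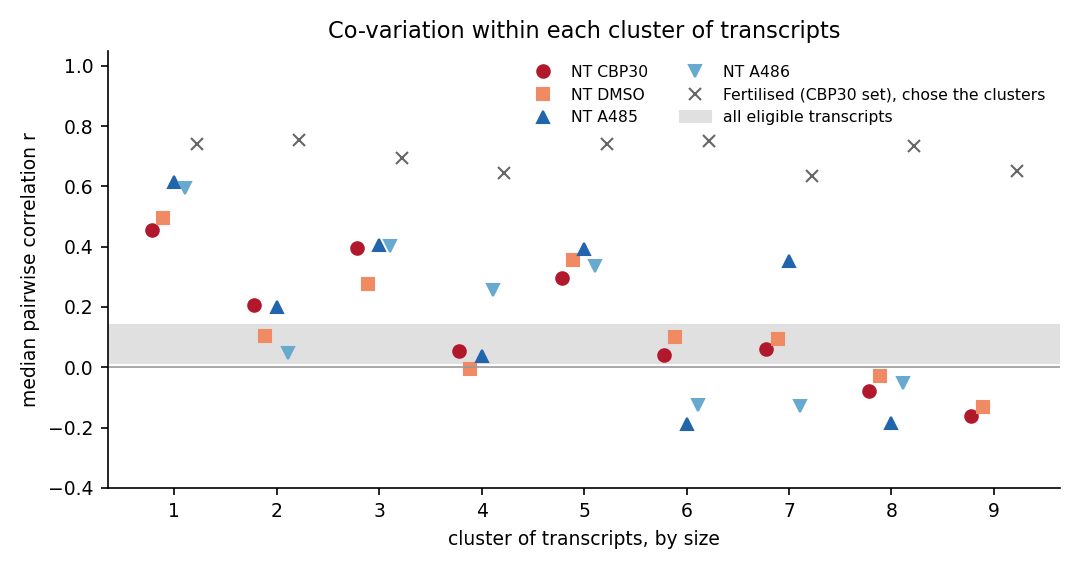
Median pairwise correlation r (vertical axis) of the transcripts in each of the 9 clusters (horizontal axis, by size), 1 symbol per ectoderm group. Crosses are the fertilised libraries that formed the clusters, and the grey band spans the same value for all eligible transcripts. The fertilised libraries of the A485 set are not shown. NT A485 and NT A486 cover the matched transcripts only and have no symbol for cluster 9. Cluster 1 lies at 0.45 to 0.61 in the 4 nuclear-transfer groups, and clusters 3 and 5 lie between 0.28 and 0.41.

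The 2 transcripts with the highest mean correlation to the other members of cluster 1 in fertilised ectoderm were XBmRNA75601 and XBmRNA59029. XBmRNA75601 ran from 21.8 to 93.6 CPM in NT CBP30 (median 58.5 CPM), from 13.5 to 66.8 CPM in NT DMSO (median 45.0 CPM) and from 9.63 to 60.1 CPM in fertilised ectoderm (median 30.6 CPM). Within experiment 3 alone it had 21.8, 73.7 and 58.5 CPM in NT CBP30, then 17.1, 41.6, 48.3, 61.0 and 66.8 CPM in NT DMSO, and 16.1, 33.1, 60.1 and 21.4 CPM in fertilised ectoderm. Each group of that experiment thus held both low and high libraries. XBmRNA59029 ran from 83.5 to 392 CPM in NT CBP30, from 106 to 329 CPM in NT DMSO and from 106 to 320 CPM in fertilised ectoderm. The library lowest in XBmRNA75601 in NT CBP30 experiment 3, with 21.8 CPM, was also the lowest there in XBmRNA59029, with 102 CPM against 392 and 267 CPM.

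Averaged over its transcripts, cluster 1 spanned 2.46-fold between the lowest and the highest NT CBP30 library, relative to the experiment means. The span was 2.42-fold in NT DMSO and 2.37-fold in fertilised ectoderm, and 2.29-fold in NT A485 and 2.01-fold in NT A486. The 4 fertilised libraries of the A485 set spanned 1.25-fold. Cluster 3 spanned 2.34-fold in NT CBP30, 2.04-fold in NT DMSO and 2.78-fold in fertilised ectoderm.

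The means of clusters 1 and 3 ran against each other in the 4 nuclear-transfer groups. They did so too in the fertilised libraries of the CBP30 set, whose correlations had set these clusters apart. The Pearson correlation of the 2 cluster means was -0.81 over the 11 NT CBP30 libraries (Spearman -0.66), -0.76 over the 12 NT DMSO libraries (Spearman -0.74) and -0.74 over the 11 fertilised libraries (Spearman -0.61). Without library 5 of experiment 3 it was -0.74 in NT DMSO. It was -0.69 in NT A485 (Spearman -0.66) and -0.74 in NT A486 (Spearman -0.69). With the 2 libraries farthest from the median of cluster 1 left out, the Pearson values lay between -0.65 and -0.89 in these 5 groups, and at -0.52 in NT DMSO when its library 5 of experiment 3 was left out too. In the 4 fertilised libraries of the A485 set the value was positive, 0.43, over too few libraries to describe a correlation. XBmRNA17601, the transcript with the highest mean correlation to the others of cluster 3 in fertilised ectoderm, is an example: in NT DMSO experiment 1 it had 7.5 CPM in library 1 and 19.9, 20.1 and 24.8 CPM in libraries 2 to 4. XBmRNA75601 had 49.5 CPM in that library 1, against 13.5, 23.3 and 14.4 CPM in libraries 2 to 4. Clusters 4 and 5 also ran against cluster 1 in NT A486, at -0.83 and -0.87. In the other nuclear-transfer groups cluster 4 lay between -0.40 and -0.08 and cluster 5 between -0.58 and -0.10. The mean of cluster 2 ran with that of cluster 1 at 0.83 in NT CBP30, 0.41 in NT DMSO and 0.87 in NT A485. It did not in NT A486, at -0.08.

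**Figure D4:**
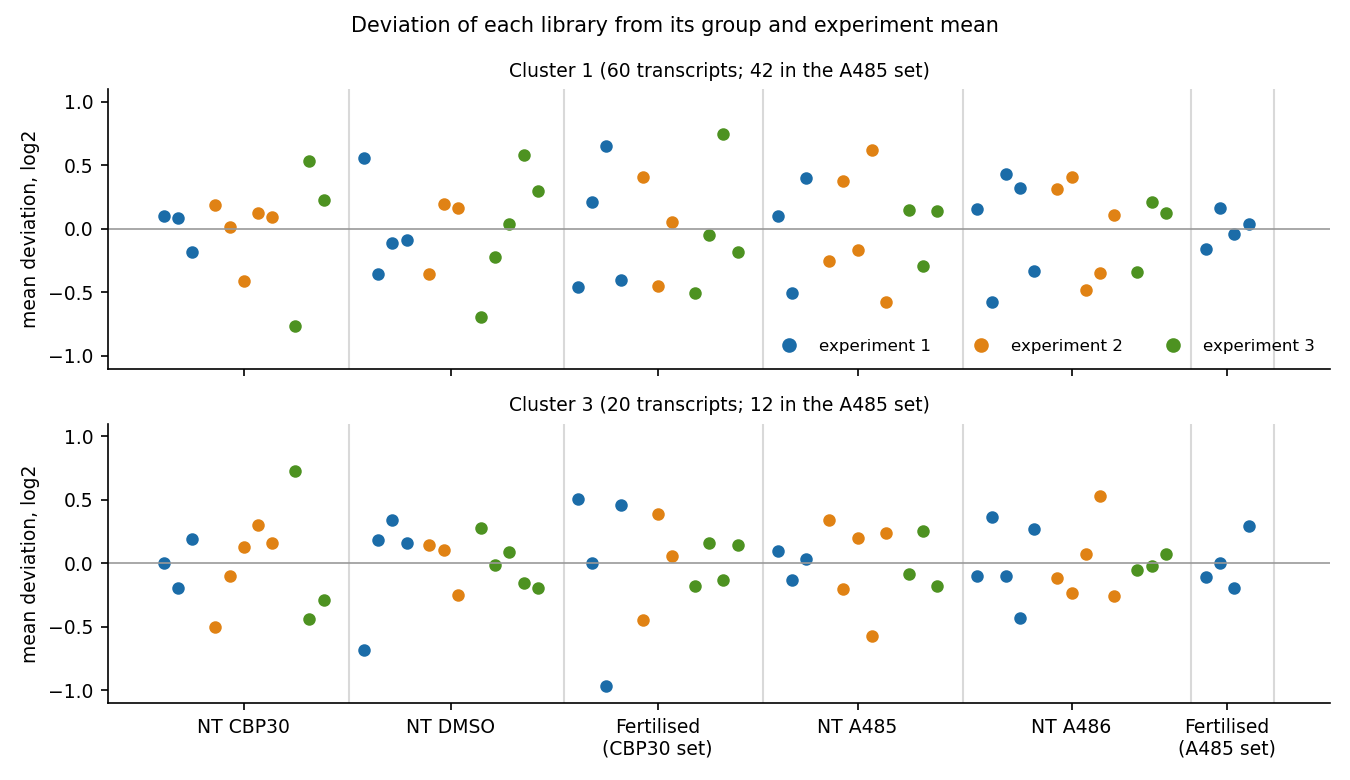
Mean deviation of cluster 1 (upper panel) and cluster 3 (lower panel) from the mean of each group and experiment, in log2 units (vertical axis), 1 point per library, for the 5 large ectoderm groups and the 4 fertilised libraries of the A485 set (horizontal axis). Cluster 1 spans about as much in NT CBP30, NT DMSO and fertilised ectoderm (2.46-, 2.42- and 2.37-fold). In the 5 large groups libraries high in the upper panel tend to be low in the lower one. The fertilised libraries of the CBP30 set formed the clusters.

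Cluster 1 moved with the summed endoderm-high or ectoderm-high transcripts in some groups. The summed CPM of the endoderm-high transcripts correlated with the cluster 1 mean at 0.64 over the NT CBP30 libraries (Spearman 0.75) and at 0.78 over the fertilised libraries (Spearman 0.82). It did so at 0.36 over the NT DMSO libraries (Spearman 0.51), or 0.35 without library 5 of experiment 3 (Spearman 0.29). In the A485 set the values were 0.05 in NT A485 and 0.27 in NT A486. The endoderm-high sum ranged from 2307 to 3478 CPM in NT CBP30 and from 1696 to 2994 CPM in fertilised ectoderm, against 60765 to 170428 CPM in DMSO donors. The summed ectoderm-high transcripts correlated with cluster 1 at 0.91 in NT A485, -0.20 in NT A486, 0.56 in NT CBP30, 0.01 in NT DMSO and 0.47 in fertilised ectoderm. Without library 5 of experiment 3 the NT DMSO value was 0.48 (Spearman 0.59). The part of tissue content in the spread of cluster 1 was not tested. Total counts correlated with cluster 1 between -0.39 and 0.25 in the 5 groups.

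**Figure D5:**
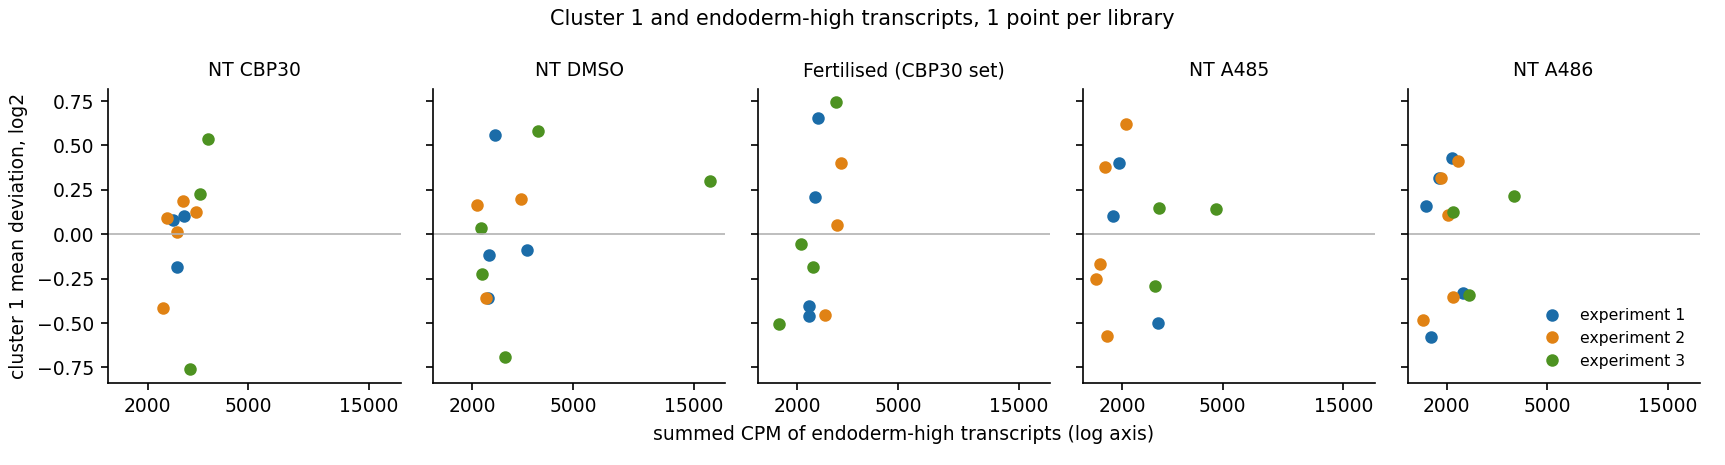
Mean deviation of cluster 1 from each group and experiment mean, in log2 units (vertical axis), against the summed CPM of the endoderm-high transcripts (horizontal axis, logarithmic), 1 point per library, coloured by experiment, 1 panel per ectoderm group. The sum covers 498 transcripts in the CBP30 set and 298 in the A485 set. The point at 17367 CPM is NT DMSO library 5 of experiment 3. Cluster 1 is higher where the sum is higher in NT CBP30 and in fertilised ectoderm (r of 0.64 and 0.78), and r was 0.05 in NT A485 and 0.27 in NT A486.

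Inhibition of p300 and CBP in the donors was compared with the control donors for the level of the variable transcripts. The NT DMSO levels had taken part in the choice, through the limits on their ratio to fertilised ectoderm, and the NT CBP30 levels had not. The level comparison of these groups is therefore not independent of the choice. No member passed the test between NT CBP30 and NT DMSO (0 of 200; edgeR quasi-likelihood test, Benjamini-Hochberg adjusted p under 0.05), and the same test called 0% of all 25668 transcripts. DESeq2 called 0 of the 200 and 13 of all transcripts. At an unadjusted p under 0.05 the edgeR test gave 19 of the 200 (9.5%) and 1155 of all (4.5%). Without experiment 1 or 2 it gave 12 of the 200 (6%), against 4.55% and 3.32% of all. Without experiment 3 it gave 35 (17.5%), against 5.03%. The members were chosen for high spread and move together within clusters, so no conclusion is drawn from such shares, here or below. The median log2 difference, NT CBP30 minus NT DMSO, was 0.09 for the 200 and -0.01 for all transcripts, and 0.13 for the 200 without library 5 of experiment 3.

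Within this comparison, cluster 1 was on the positive side without any call. Of its 60 transcripts, 54 had a higher fitted level in NT CBP30, with a median log2 difference of 0.29, where cluster 3 had 6 of 20 and -0.12. The members of a cluster move together, so these are not 60 separate observations. By experiment, the median for cluster 1 was 0.55, 0.29 and 0.06 log2 units in experiments 1, 2 and 3, and 0.14 in experiment 3 without library 5. For the eligible transcripts it lay between -0.07 and 0.00. The difference of 0.29 is smaller than the 1.30 log2 units between the lowest and the highest NT CBP30 library in this cluster. That range is of single libraries and does not measure the uncertainty of a difference between groups.

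The spread itself did not pass a test between the donor treatments either. In a limma test of absolute deviations from the mean of the group and experiment, 0 of the 200 and 0% of all 25668 transcripts had a called difference between NT CBP30 and NT DMSO. The median difference in absolute deviation, NT CBP30 minus NT DMSO, was 0.03 log2 units for the 200. At an unadjusted p under 0.05 this test gave 22 of the 200 (11%) and 1995 of all (7.77%). A p above the threshold does not show that the spreads were alike.

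The A485 set gave no called member in either test. Between NT A485 and NT A486 the edgeR test called 0 of the 28 members of unchanged length and 0 of all 105 matched, where it called 0.0339% of all transcripts. At an unadjusted p under 0.05 it gave 4 of the 28 and 15 of the 105 (14.3%), against 9.49% of all. DESeq2 called 0 of the 105 and 30 of all. A block for the experiment number gave 35 calls over all transcripts, against 7 without it, and 0 of the members. With the block, 3 of the 28 (10.7%) and 19 of the 105 (18.1%) had an unadjusted p under 0.05 in the edgeR test, against 15.4% of all. The spread test called 0 of the 28 and 0 of the 105, where 0.00484% of all transcripts were called, with 3 of the 28 and 10 of the 105 (9.52%) at an unadjusted p under 0.05, against 6.32% of all. The median difference of cluster 1, NT A485 minus NT A486, was 0.12 over its 42 matched transcripts.

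Nuclear-transfer and fertilised ectoderm were compared in experiment 1 of the A485 set, in libraries the choice of transcripts had not used. Between NT A486 (5 libraries) and fertilised ectoderm (4 libraries) the edgeR test called 7 of the 28 members of unchanged length, 6 higher and 1 lower in NT A486, where it called 28.3% of all transcripts. That is 25% of the members, close to the share over all transcripts. The same holds for all 105 matched members, with 31 called (29.5%), 21 of them higher and 10 lower. Both counts depended on single libraries. That over the 28 was 1 without fertilised library 3, 2 without fertilised library 2 or NT A486 library 3, and 3 without NT A486 library 4, and reached 7 at most with any library left out. That over the 105 was 19 without fertilised library 2 (12 higher and 7 lower) and 22 without fertilised library 3 (11 higher and 11 lower). It was 21 without NT A486 library 3 or 4. Calls over all transcripts fell too, from 5840 of 20627. They were 4698 of 20785 without fertilised library 2 and 5233 of 20816 without fertilised library 3. Without NT A486 library 3 or 4 they were 4751 of 20269 and 4440 of 20380. The share of the 105 called was 18.1%, 21%, 20% and 20% in these settings in turn. The summed endoderm-high transcripts differed between these groups too, from 1661 to 2321 CPM in NT A486 against 2560 to 5191 CPM in fertilised ectoderm, without overlap. The summed ectoderm-high transcripts ran from 19174 to 29533 CPM in NT A486 and from 23774 to 51405 CPM in fertilised ectoderm. The part of these differences in the calls was not tested.

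The called members of unchanged length with the smallest p were XBmRNA59048 and XBmRNA48486, both of cluster 1, and XBmRNA17628. XBmRNA59048 had 5.86, 1.54, 6.42, 4.77 and 2.40 CPM in NT A486, against 0.974, 1.57, 0.997 and 0.626 CPM in fertilised ectoderm. NT A486 library 2 lay inside the fertilised range and the other 4 above it, for a log2 difference of 2.06 (SE 0.45, adjusted p = 0.0086, edgeR). XBmRNA48486 had 264, 114, 251, 294 and 142 CPM in NT A486, against 124, 106, 90.1 and 111 CPM in fertilised ectoderm. Its log2 difference was 1.03 (SE 0.27, adjusted p = 0.0189, edgeR), with 1 NT A486 library inside the fertilised range. XBmRNA17628 had 5.77, 18.8, 3.69, 6.72 and 20.8 CPM in NT A486, against 20.7, 61.4, 93.6 and 22.7 CPM in fertilised ectoderm. It was lower in NT A486, with a log2 difference of -2.06 (SE 0.60, adjusted p = 0.029, edgeR), and the groups overlapped in 1 library. None of the 28 was called lower without fertilised library 2 or 3, or without NT A486 library 1 or 3, so this call rests on those libraries.

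Cluster 1 held 15 of the 21 matched members called higher in NT A486. Of its 42 matched transcripts, 15 were called, all of them higher in NT A486, and 32 had a positive difference, with a median of 0.60 log2 units. Over all 20627 transcripts, 28.3% were called, 3047 of them higher and 2793 lower. The members of cluster 1 move together, so these are not 42 separate observations. An example is XBmRNA30625, with 756, 430, 836, 938 and 504 CPM in NT A486, against 161, 181, 177 and 170 CPM in fertilised ectoderm, where its target is 1526 bases long and not 1406. Its groups did not overlap, and its log2 difference was 2.06 (SE 0.22, adjusted p = 0.00033, edgeR). Cluster 3 had 2 higher and 3 lower calls among its 12 matched transcripts. XBmRNA75239 of that cluster had 6.79, 9.06, 8.33, 8.18 and 10.4 CPM in NT A486, against 65.6, 38.0, 41.4 and 21.6 CPM in fertilised ectoderm, a log2 difference of -2.23 (SE 0.29, adjusted p = 0.00083, edgeR). The fertilised library high in ectoderm transcripts was the highest of its group for this transcript.

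In the same libraries, the limma test of spread called 0 of the 28 members, where it called 0.33% of all transcripts. Among the 105 matched it called XBmRNA63731, less spread in NT A486 by 0.60 log2 units of absolute deviation (adjusted p = 0.0041). It had 70.4, 66.4, 75.6, 59.6 and 64.6 CPM in NT A486, against 66.9, 163, 73.9 and 166 CPM in fertilised ectoderm. The fertilised values formed 2 pairs, and the call was lost when any 1 of the 4 was left out.

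Some variable transcripts carry consecutive identifiers. XBmRNA75600 and XBmRNA75601, both of cluster 1, had a correlation of 0.97 over the nuclear-transfer libraries and 0.99 over the fertilised ones. XBmRNA13250 and XBmRNA13251 had 0.93 and 0.94, and XBmRNA50546 and XBmRNA50547 had 0.81 and 0.97. XBmRNA19749 of cluster 2 and XBmRNA19750 of cluster 1 had 0.88 and 0.72. In the A485 set, XBmRNA13250 and XBmRNA13251 carry different gene identifiers, as do XBmRNA79216 and XBmRNA79217. For the other pairs it is not given whether they are neighbouring genes or transcripts of 1 gene.

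The other 2 pairs had lower correlations, with 0.34 over the nuclear-transfer libraries and -0.13 over the fertilised ones for XBmRNA49704 and XBmRNA49705. The last pair is XBmRNA79216 and XBmRNA79217. Xenopus laevis is allotetraploid, and similar copies of a gene can share reads. These 2 targets are each 997 bases long and had a correlation of 0.28 over the nuclear-transfer libraries and -0.27 over the fertilised ones. XBmRNA79217 had 1.29 CPM in fertilised library 3 of experiment 1, where XBmRNA79216 had 52.6 CPM, and 20.2 CPM in library 3 of experiment 2, where XBmRNA79216 had 6.49 CPM. Their SDs in fertilised ectoderm were 0.86 for XBmRNA79216 and 1.41 for XBmRNA79217, and that of their summed counts was 0.49 log2 units. Whether reads were split between these 2 targets was not tested, so the level of each is uncertain.

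Transcripts outside the set also followed cluster 1. Among 14420 other expressed transcripts, 322 had a correlation of at least 0.7 with the cluster 1 mean over the 23 nuclear-transfer libraries, and 168 had one of -0.7 or lower. Over the 11 fertilised libraries the numbers were 1427 (9.9% of the 14420) and 428 (2.97%). Other clusters had followers too: 1928 transcripts reached 0.7 with cluster 2 and 1034 with cluster 3 over the fertilised libraries. Over the nuclear-transfer libraries 104 and 171 did. Of the 322, 286 were also among the 1427, which is 88.8% of the nuclear-transfer list and 20.04% of the fertilised list. Of the 168 that ran against cluster 1, 48 were shared, or 28.6% and 11.2% of the 2 lists. XBmRNA4126 ran most closely with cluster 1 over the nuclear-transfer libraries (0.96, with 0.97 in fertilised ectoderm) and XBmRNA31701 most closely against it (-0.90, with -0.94). The median log2 ratio of DMSO donor endoderm to fertilised ectoderm was -1.42 for the 322, where it was -0.67 over all 14420 and -0.36 for the 168. Single transcripts differed from these medians, among them the 2 just named. The unlogged ratio was 2.95 for XBmRNA4126, which was thus higher in endoderm, and 0.035 for XBmRNA31701, which was far lower there.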

How the data were processed

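The authors deposited 1 abundance table per library with expected counts (estimated reads per target, not scaled for depth), and the submitters' processing notes name kallisto 0.48 as a tool. The deposited tables also hold target lengths in bases, an other kind of value, used here to match the sets. The genome build and the annotation of the targets are not given in the sources used here. Of 115 recorded samples, 85 with a file were read, and 4 files tied to no sample were not used here. Groups and experiment numbers come from the titles, and for 2 libraries whose tissue field contradicts the title, the title was followed.

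The variable transcripts and all lists were chosen with earlier results of these data known. CPM used all targets, of which 0.934% to 3.24% of a CBP30-set ectoderm library's counts were not XBmRNA. Pooled SDs and correlations were computed after subtracting each group and experiment mean of log2(CPM + 0.5). Tests used all targets: edgeR 4.0.16 in R 4.3.3 (expected counts rounded to whole numbers, filterByExpr, TMM, quasi-likelihood F test, two-sided, Benjamini-Hochberg, adjusted p under 0.05) with DESeq2 1.42.0 as the alternative, and limma 3.58.1 on absolute deviations for spread, each scaled for the number of libraries of its group in its experiment. The level and spread tests of NT CBP30 against NT DMSO and the level test of NT A486 against fertilised ectoderm were first run on simulated counts. Those counts were drawn independently for each transcript, unlike the variable transcripts, which move together. The other tests and the SDs, clusters and correlations were not run on simulated data. Counting error and the limit of 3 counts behind a count of 0 cover counting only.

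The named transcripts are the 6 with the highest SD, the 2 on each side of the limit, up to 2 called members per direction and test, the 2 highest and 2 lowest in nuclear-transfer spread, and the 2 centres of a cluster. XBmRNA79216 was a cluster centre, and followers, consecutive identifiers and the lowest correlation were named after their values were seen.

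Whether the experiment number pairs libraries was checked from the correlation of deviations of the groups within each number. It was 0.61, 0.69 and 0.65 between NT CBP30 and NT DMSO and 0.57, 0.73 and 0.77 between NT A485 and NT A486 in experiments 1 to 3, so a fit with the number as a block was run as well. Other alternatives changed the scaling, the filter on low counts, the pseudocount, the matching between sets and the libraries used.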

Additional observations from a re-analysis of the deposited data

Results flagged for a closer look

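Values of 1 measure in the 4 or 5 libraries of 1 group and experiment were taken as a set. Of 145 such sets, 8 held a library far from the others, close to the 1 in 20 or so that chance gives. The same libraries recur under many measures, so the sets are not independent. In NT CBP30 experiment 2, the mean of cluster 7 was -0.2974 log2 units in library 4, against 0.03537 to 0.1033 in the other 4. In NT DMSO experiment 1, the mean of cluster 5 was -0.6413 in library 1, against 0.1655 to 0.2984. In NT DMSO experiment 3 it was -0.796 in library 5, against 0.1347 to 0.3403. Cluster 5 transcripts were thus low in 1 library of each of these experiments.

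The remaining cases are levels. XBmRNA28267 had 3.223 CPM in NT DMSO library 1 of experiment 3, against 5.428 to 5.827 CPM in the other 4. The endoderm-high sum was 17367 CPM in NT DMSO library 5 of experiment 3, against 2156 to 3630 CPM, and 3301 CPM in NT DMSO library 4 of experiment 1, against 2309 to 2455 CPM. The ectoderm-high sum was 36528 CPM in NT DMSO library 3 of experiment 1, against 31606 to 32382 CPM, and 29533 CPM in NT A486 library 5 of experiment 1, against 19174 to 21831 CPM. The NT DMSO library with 17367 CPM was also the one low in cluster 5, and without it the correlation of the endoderm-high sum with cluster 5 in NT DMSO was 0.10, against -0.69 with it. The same correlation was -0.72 in NT A485 (Spearman -0.74) and -0.24 in NT A486 (Spearman -0.38). In NT CBP30 it was 0.37 (Spearman -0.03), and in the fertilised libraries of the CBP30 set -0.01.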

How the results depend on the processing

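Over 29 results, 166 of 182 alternative values stayed within the main value's limits and 16 moved. The 166 include tests with no called member, where a 0 that stayed at 0 counted as unchanged. For median SDs the limit was the SD between experiments, from 0.032 log2 units in NT DMSO to 0.13 in NT A485. The tally therefore depends on these limits. Of the 28 members of unchanged length, 1 to 7 were called between NT A486 and fertilised ectoderm when 1 library was left out. Calls over all transcripts fell then as well. Matched whatever the length, 31 of the 105 were called, and the spread test called 1. The median SD was 0.416 in NT DMSO with a pseudocount of 2. In NT A485 it ranged from 0.405 to 0.612 with 1 experiment left out, and the top 10% from 11 to 19 members, the lowest of each without experiment 2. In the fertilised libraries of the A485 set it was 0.3331 without library 1. The list itself shared 112 to 167 of its 200 transcripts with that chosen without 1 fertilised library, fewest without library 2 of experiment 2 and 128 without library 1, and 130 at a mean of at least 10 CPM. The cluster 1 correlation in fertilised ectoderm was 0.6909 by Spearman and 0.6728 to 0.7834 with 1 library left out. The causes were not tested.

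A block for the experiment number left the calls among the variable transcripts at 0 in each of the 4 comparisons of donor treatments, so it changed no call among them. The spread of all transcripts of a gene and the marker lists were not run, since gene names are not paired with the identifiers. Transcripts near 5 CPM carry the largest counting error. Every SD is limited by 3 to 5 libraries per experiment in ectoderm groups and at most 2 in donor endoderm.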
